A study of Mus musculus with 4 samples.

Results

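Calcium/calmodulin-dependent protein kinases and calcineurin are the kinases and the phosphatase that read calcium entry into neurons. The 9 genes considered here are Camk2a, Camk2b, Camk2d and Camk2g, which encode the subunits of CaM kinase II, Camk4, which encodes the nuclear kinase CaMKIV, Ppp3ca, Ppp3cb and Ppp3cc, which encode the catalytic subunits of calcineurin, and Ppp3r1, which encodes its regulatory subunit. Members were all probe sets of the array whose annotation names 1 gene symbol and that symbol is 1 of these. There were 9 such probe sets among 12488 on the array, and they covered 8 of the 9 genes. Camk2a had 2 probe sets and each of the other genes covered had 1. No probe set was annotated to Camk2g, which was not analysed here.

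The tissue was the dentate gyrus, the granule cell field of the hippocampus. It came from young male C57BL/6J mice whose only treatment was handling by the experimenter. There were 4 samples, with 1 array each, taken 1, 2, 4 and 6 h after other mice of the experiment had received their last shock, and the shocked mice were not analysed here. No hour has a replicate, and the number of mice behind a sample is not given in the sources used here. Values are array intensities on a linear scale, listed in the order 1, 2, 4 and 6 h, and in bulk RNA fewer cells of a type and less RNA per cell cannot be told apart.

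Calcium that enters through NMDA receptors and voltage-gated channels binds calmodulin, and calcium-loaded calmodulin switches on both enzyme classes. CaM kinase II forms a large holoenzyme of alpha, beta, gamma and delta subunits that can hold itself active by autophosphorylation, and in hippocampal synapses it is known for its part in long-term potentiation. CaMKIV acts in the nucleus, where CREB is a substrate. Calcineurin is a dimer of a catalytic A subunit and the calcium-binding B subunit, is known for its part in long-term depression, and dephosphorylates NFAT transcription factors, which then enter the nucleus.

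Markers of dentate granule cells were read on these arrays beside those of other cell types. Of the genes listed for dentate granule cells, the brightest were Ncdn, at 34615 ± 2314, and the calcium-binding protein gene Calb1, at 2632 ± 265 (mean ± SD, n = 4 arrays). Whether Ncdn and Calb1 are particular to granule cells was not tested. The filter described next was passed by 8 of the 9 listed granule cell genes with a probe set. It was also passed by 7 of 7 CA field, 8 of 10 interneuron, 8 of 8 astrocyte and 8 of 9 microglia genes. Prox1, the transcription factor that defines granule cells, was named after its values were seen and read 184.2, 153.5, 182 and 249.1. The summed intensity of the tested granule cell probe sets was 44261, 42109, 46289 and 41624. Ncdn alone gave most of that sum, at 35840.6, 32034.7, 37161.7 and 33422.9. That of the tested choroid plexus probe sets was 2460, 5294, 6312 and 3173, of which Igf2 gave 1849.1, 4402.2, 2954.6 and 2520.8 and Ttr 81.3, 233.6, 2408.1 and 191.2. Igf2 was thus highest at 2 h and Ttr at 4 h. Astrocyte probe sets summed to between 34592 and 38627, oligodendrocyte ones to between 14563 and 15725, microglial ones to between 8224 and 9339, and endothelial and mural ones to between 1797, at 6 h, and 2441. CA field probe sets summed to between 18617 and 20435 and interneuron ones to between 24225 and 27124. The part of these cell types in the readings below was not tested. Array medians were 185.6, 187.3, 212.8 and 184.8.

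A floor was set at 38.3, the 20th percentile of all values, and a probe set was tested for a trend if its mean log2 intensity over the 4 arrays reached 6.91, an intensity of 120 and the 40th percentile of these means. Of the 9 member probe sets, 5 passed (Camk2b, Ppp3ca, Ppp3cb, Ppp3cc and Ppp3r1) and 4 did not (both Camk2a probe sets, Camk2d and Camk4). The member nearest above this limit was Ppp3cc, with a mean log2 of 7.69, and the nearest below was Camk4, with 6.15. Over all probe sets with 1 gene symbol, 6500 of 10833 were tested.

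Among the 5 tested members, Ppp3cb, Ppp3ca and Ppp3r1 spanned most between arrays, and the calcineurin genes did not share 1 course. Ppp3ca and Ppp3cb were highest at 1 h, Ppp3r1 was lowest at 6 h, and Ppp3cc and Camk2b were highest at 6 h over a narrow range. No trend with the hour was called: with limma, 0 of the 5 tested members had an adjusted p under 0.05, where percent called over all 6500 tested probe sets was 0 in each direction. At an unadjusted p under 0.05 the count was 0 of 5 members as well, against 1.17% of all tested probe sets rising and 0.923% falling.

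**Figure D1:**
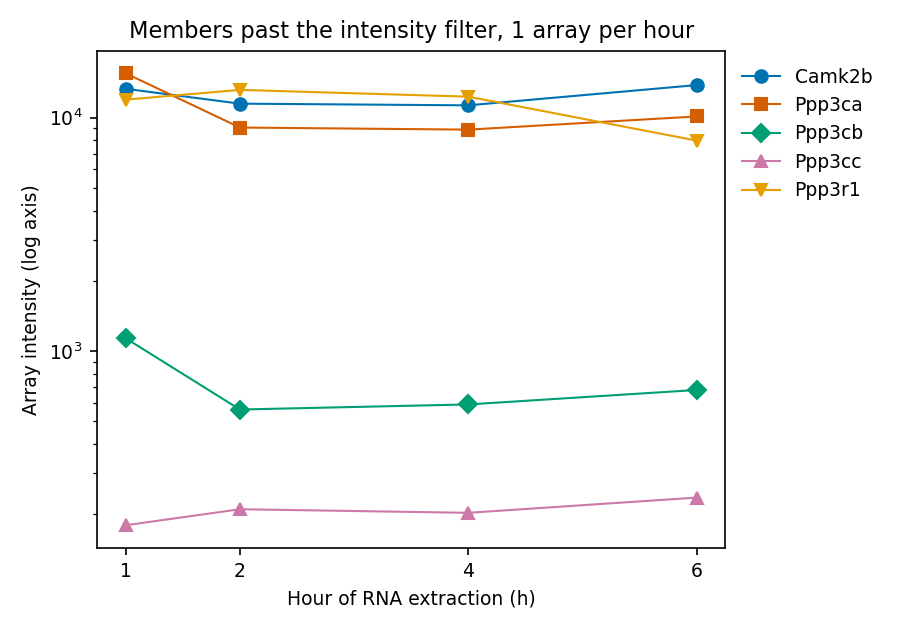
Array intensity (log axis) against hour of RNA extraction (h) for the 5 members past the filter; each point is 1 array and lines join the points of 1 probe set. Ppp3ca and Ppp3cb stand highest at 1 h and Ppp3r1 lowest at 6 h, while Camk2b stays between 11284.3 and 13782.7.

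For 2 calcineurin subunit genes whose courses differed, the 250 bases before the annotated start are shown from RefSeq, build GRCm38.p6. That table held 4 of the 9 genes (Camk2b, Camk2d, Ppp3cb and Ppp3r1). Ppp3cb lies at chr14:20546574-20546823 on the minus strand and Ppp3r1 at chr11:17159048-17159297 on the plus strand, both written 5′ to 3′ towards the gene. Capitals mark matches to TGACG, the CREB half-site (CGTCA on the opposite strand), or to GGAAA, the NFAT core (TTTCC on the opposite strand), motifs of the factors that lie downstream of CaMKIV and of calcineurin.
Ppp3cb: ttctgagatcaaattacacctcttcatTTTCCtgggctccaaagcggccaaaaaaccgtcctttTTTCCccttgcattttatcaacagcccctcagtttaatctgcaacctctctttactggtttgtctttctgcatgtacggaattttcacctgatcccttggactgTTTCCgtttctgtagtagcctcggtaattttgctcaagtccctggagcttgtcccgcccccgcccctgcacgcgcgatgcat
Ppp3r1: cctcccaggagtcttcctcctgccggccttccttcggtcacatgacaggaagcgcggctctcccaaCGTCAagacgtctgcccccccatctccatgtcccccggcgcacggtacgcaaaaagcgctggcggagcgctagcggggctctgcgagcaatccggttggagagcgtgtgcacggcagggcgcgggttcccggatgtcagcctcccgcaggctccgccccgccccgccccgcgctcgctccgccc
The Ppp3cb window held 3 matches to the NFAT core, which began 223, 186 and 82 bases before the start, and 0 to the CREB half-site. The Ppp3r1 window held 1 match to the CREB half-site, 184 bases before the start, and 0 to the NFAT core. Over all 32851 windows of 250 bases in the table, 55.6% held the NFAT core and 17.8% the CREB half-site on either strand. The windows also differed in base composition, with 48.4% G or C in that of Ppp3cb and 70.8% in that of Ppp3r1. The Camk2b window held 0 matches to either motif at 78.4% G or C, and the Camk2d window 1 match to the NFAT core, 192 bases before the start, and 0 to the CREB half-site at 68.4% G or C.

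Camk2b encodes the beta subunit of CaM kinase II, the subunit that binds actin filaments. Its probe set 100453_at read 13282.6, 11472.2, 11284.3 and 13782.7. The 1 and 6 h arrays were the higher pair and the 2 and 4 h arrays the lower, and the span between highest and lowest was 1.22-fold. Its mean was 12455 ± 1263 (SD, n = 4), and 87.8% of all tested probe sets spanned more than it did. On the hour its slope was 0.02 ± 0.05 log2 per h (SE, n = 4; limma adjusted p = 0.99995), with a 95% interval of -0.097 to 0.129. Without the 6 h array the slope was -0.07.

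Ppp3ca encodes the alpha isoform of the catalytic subunit, the main neuronal isoform. Its probe set 95092_at read 15470.3, 9066.3, 8880.4 and 10113.5. The 1 h array stood apart at the top, 0.73 log2 above the mean of the other hours, and the other 3 hours lay within 0.19 log2 of each other. The mean was 10883 ± 3106 (SD, n = 4), and the span between the 1 h and the 4 h array was 1.74-fold. Of all tested probe sets, 33.2% spanned more.

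Ppp3cb encodes the beta isoform of the same subunit. Its probe set 97989_at read 1134, 561.9, 590.8 and 681.4. Here too the 1 h array was the high one, 0.9 log2 above the mean of the others. The 2, 4 and 6 h arrays lay within 0.28 log2 of each other. The span of 2.02-fold was the widest among the tested members and the only one over 2-fold, and 21.6% of all tested probe sets spanned over 2-fold. It was 2-fold by a small margin: with log2(value + 50) or after quantile normalization, 0 of the 5 passed that limit, and without the 1 h or the 2 h array 0 did.

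Ppp3ca and Ppp3cb were thus both at least 0.5 log2 above the other hours at 1 h, as were 8.57% of all tested probe sets. This limit was chosen after the values were seen. The 1 h array remained the highest for both after array median scaling and after quantile normalization. The other alternative settings that kept the 1 h array could not change that order. Over all 7 that kept it, the difference from the other hours was 0.63 to 0.8 log2 for Ppp3ca and 0.84 to 0.98 log2 for Ppp3cb. Their slopes were -0.09 ± 0.06 log2 per h for Ppp3ca (95% interval -0.229 to 0.05) and -0.1 ± 0.08 for Ppp3cb (95% interval -0.284 to 0.086; SE, n = 4, limma adjusted p = 0.99995 for each). Without the 1 h array both slopes turned positive, at 0.04 for Ppp3ca and 0.07 for Ppp3cb.

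Ppp3cc encodes the gamma isoform, best known from testis. Its probe set 160948_at read 179.5, 210.2, 202.9 and 235.8. The 1 h array was the lowest and the 6 h array the highest, at 1.31-fold, the reverse of the order of those hours in Ppp3ca and Ppp3cb. On the hour its slope was 0.06 ± 0.11 log2 per h (SE, n = 4; limma adjusted p = 0.99995), with a 95% interval of -0.186 to 0.312. After array median scaling or quantile normalization its lowest hour was 4 h in place of 1 h.

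Ppp3r1 encodes calcineurin B, the calcium-binding regulatory subunit that the catalytic subunits need. Its probe set 99183_at read 11939, 13140.9, 12292.3 and 7969.2. The first 3 hours lay within 0.14 log2 of each other, and the 6 h array stood alone at the bottom, 0.64 log2 below the mean of the others. The mean was 11335 ± 2300 (SD, n = 4). The span between the 2 h and the 6 h array was 1.65-fold, and 39.1% of all tested probe sets spanned more.

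Ppp3r1 had the most negative slope of the tested members, -0.12 ± 0.05 log2 per h (SE, n = 4; limma adjusted p = 0.99995), with a 95% interval of -0.238 to 0.002, and 6.8% of all tested probe sets had a lower slope. Without the 6 h array its slope was 0.005. The 6 h array remained the lowest after array median scaling and after quantile normalization, at -0.57 and -0.63 log2 from the other hours. The other alternatives that kept the 6 h array could not change which array was lowest. Over all 7 that kept it, the difference was -0.67 to -0.57 log2. Of all tested probe sets, 9.62% lay at least 0.5 log2 below their other hours at 6 h.

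**Figure D2:**
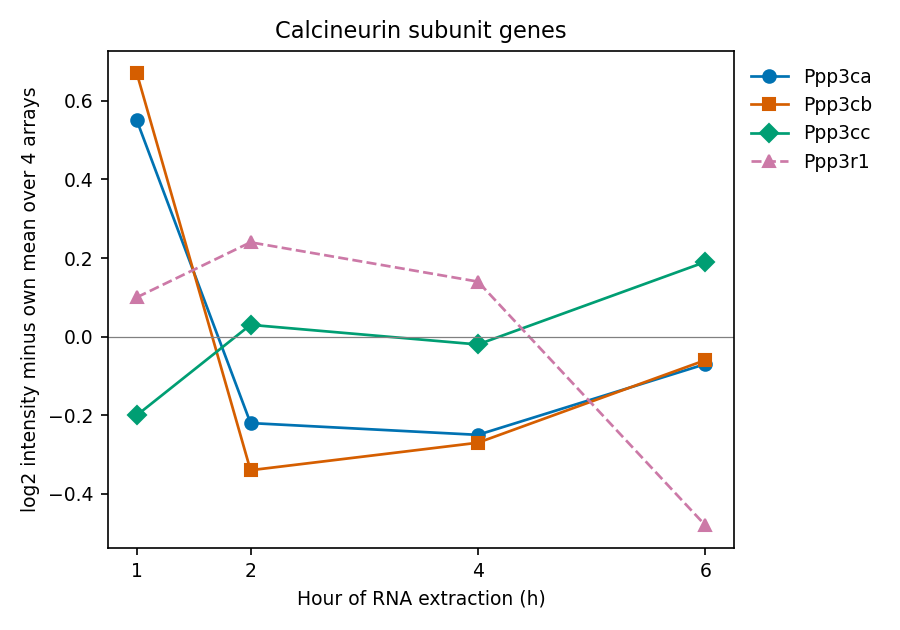
log2 intensity minus each probe set's own mean over the 4 arrays, against hour of RNA extraction (h), for the calcineurin catalytic subunit genes (solid lines) and the regulatory subunit gene Ppp3r1 (dashed); each point is 1 array. Ppp3ca and Ppp3cb lie together, 0.55 and 0.67 above their means at 1 h, and Ppp3r1 lies at -0.48 at 6 h.

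Ratios of the subunit genes within arrays restate the readings above, with 1 array per hour. Ratios between probe sets outside the members were not computed, so no share over all probe sets stands beside them. The log2 ratio of Ppp3ca to Ppp3r1, centred on its own mean, was 0.45, -0.46, -0.4 and 0.42, a range of 1.88-fold. For Ppp3cb to Ppp3r1 it was 0.57, -0.58, -0.41 and 0.42, a range of 2.22-fold. Both ratios were high at 1 and 6 h and low at 2 and 4 h. At 1 h the Ppp3ca and Ppp3cb readings were high, and at 6 h that of Ppp3r1 was low. The ratio of Ppp3cc, the third catalytic subunit gene, to Ppp3r1 was -0.3, -0.21, -0.17 and 0.68, high at 6 h alone, a range of 1.97-fold. That of Camk2b, which is not a calcineurin gene, to Ppp3r1 ranged over 1.98-fold. The ratio of Ppp3cb to Ppp3ca kept to a range of 1.18-fold, at 0.13, -0.12, -0.01 and 0. These ratios compare changes and not levels, since different probe sets cannot be set against each other in level.

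The extremes of the tested members fell on different arrays as the values were deposited. The highest of the 4 values was at 1 h for 2 of the 5 tested members, at 2 h for 1, at 4 h for 0 and at 6 h for 2, where percent called over all tested probe sets was 23% at 1 h, 22.4% at 2 h, 32.9% at 4 h and 21.6% at 6 h. The lowest was at 1 h for 1, at 2 h for 1, at 4 h for 2 and at 6 h for 1, against 24.1%, 23.7%, 28.4% and 23.8% of all tested probe sets at those hours. The hour of the lowest value depended on the scaling: with array median scaling 4 of the 5 were lowest at 4 h, and with quantile normalization 3 were lowest at 2 h. None of the 5 moved 1 way at every step, as 5.03% of all tested probe sets did. The median SD over the 4 arrays was 0.33 log2 for the tested members and 0.27 log2 for all tested probe sets, and the median slope was -0.09 log2 per h for the members, 3 of them negative, and -0.0001 for all, of which 50.1% were negative.

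**Figure D3:**
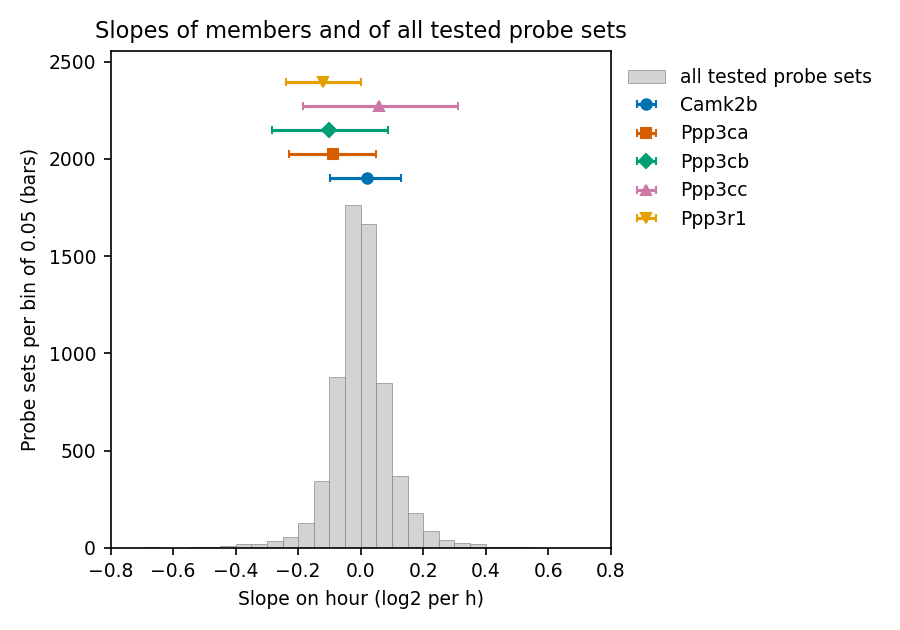
Slope on hour (log2 per h) of all 6500 tested probe sets as a histogram (bars, bins of 0.05; a few slopes lie beyond the axis) and of the 5 tested members as points with 95% intervals from limma, placed above the bars at heights with no meaning. Every member interval includes 0 and Ppp3r1 lies lowest at -0.12.

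The other CaM kinase probe sets were dim, and all 4 had means under the filter. Camk2a encodes the alpha subunit of CaM kinase II, an abundant protein of forebrain excitatory neurons. Whether its dim readings reflect the RNA or the probe sets cannot be told apart from these values. Probe set 93660_at read 127.2, 50.1, 51.2 and 45.4, all above the floor of 38.3. Its 1 h array was 2.8-fold above its 6 h array, and the other 3 lay close together near the floor. Only the 1 h value exceeded 73.3, the alternative floor at the 30th percentile of all values. Probe set 93659_at read 10.4, 9, 85.7 and 18, with 3 of 4 values under the floor and only the 4 h array above it. The 2 probe sets of the gene were therefore highest at different hours, 1 h and 4 h, and neither was tested. By Dixon's test these 2 of the 9 member probe sets held 1 array far from the other 3, as did 8.49% of all probe sets with 1 gene symbol. Of the 5 tested members 0 did, against 5.54% of all tested probe sets. Mean intensities were 68.5 ± 39.2 for 93660_at, at the 27.3th percentile of all probe sets, and 30.8 ± 36.8 for 93659_at, at the 11.8th (SD, n = 4).

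Camk2d encodes the delta subunit, best known from heart. Its probe set 93214_at read 17.8, 41.6, 6.6 and 6.2. Only the 2 h value lay above the floor, so its hours have no order here. Camk4, the gene of CaMKIV, read 41.7, 64.9, 158.2 and 59.8 on probe set 104455_at. All 4 values were above the floor of 38.3, but only the 4 h value exceeded the alternative floor of 73.3. The 4 h array was 3.79-fold above the 1 h array, whose value lay close to the floor. The mean was 81.2 ± 52.3 (SD, n = 4). The 4 h array also had the highest median over all probe sets, 212.8, whose part in these dim readings was not tested. With no filter on the mean, limma called 0 of the 9 member probe sets, and the slopes were 0.14 ± 0.2 log2 per h for Camk4 and -0.23 ± 0.13 for Camk2a probe set 93660_at (SE, n = 4).

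**Figure D4:**
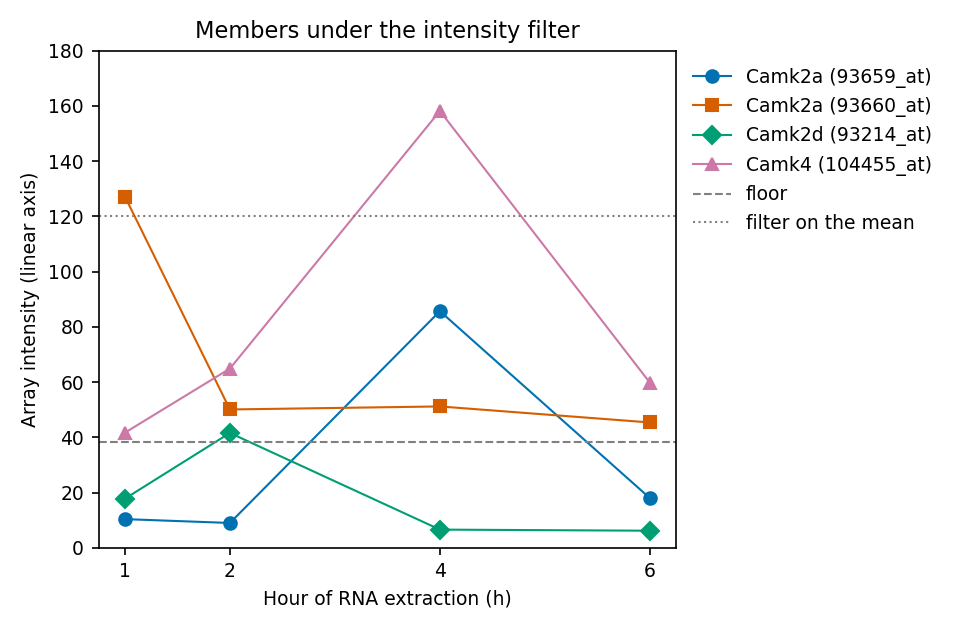
Array intensity (linear axis) against hour of RNA extraction (h) for the 4 member probe sets with a mean under the filter; each point is 1 array, the dashed line is the floor of 38.3 and the dotted line the filter of 120 on the mean. Camk4 and Camk2a probe set 93659_at are highest at 4 h, Camk2a probe set 93660_at at 1 h, and Camk2d is above the floor at 2 h alone.

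Ppp3cb, the tested member with the largest SD of log2 values, was set against every other tested probe set by the root mean square distance between log2 values centred on their own means over the 4 arrays. The closest was Prkce, the gene of protein kinase C epsilon, at a distance of 0.018 log2, with readings of 1715.9, 831.3, 867.3 and 1024.5. Next came the mitochondrial genes Mterf3 at 0.02 and Mrps34 at 0.054, then Sel1l of endoplasmic reticulum protein degradation at 0.055 and the scaffold gene Gipc1 at 0.057. All 5 were highest at 1 h and lowest at 2 h. Ppp3ca ranked 8th, at 0.086, while Camk2b lay at 0.333, Ppp3r1 at 0.502 and Ppp3cc at 0.506. The likeness rests on 4 arrays and is a description of their shared high 1 h reading.

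**Figure D5:**
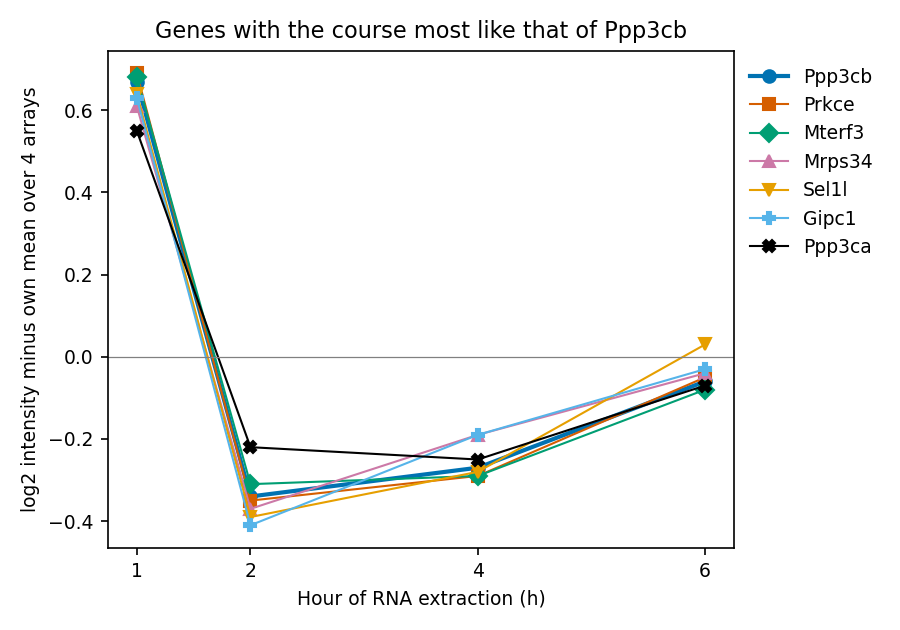
log2 intensity minus each probe set's own mean over the 4 arrays, against hour of RNA extraction (h), for Ppp3cb (thick line), the 5 tested probe sets of other genes closest to it, and Ppp3ca; each point is 1 array. All 7 lie between 0.55 and 0.69 above their means at 1 h.

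Of the wider pathway, 0 probe sets were called for a trend in either direction in any of 6 lists, where percent called over all tested probe sets was 0. For calmodulin and calmodulin-binding proteins, 5 probe sets were tested, with a median slope of -0.013 log2 per h. The widest span belonged to neurogranin (Nrgn), a postsynaptic protein that holds calmodulin, which read 7613.5, 3092.9, 2517.8 and 6525.7. Gap43, the presynaptic calmodulin-binding growth protein, read 1846.9, 1187, 1287.6 and 2079. In both, as in Camk2b, the 1 and 6 h arrays were the higher pair, over a wider span of 3.02-fold for Nrgn and 1.75-fold for Gap43. The share of all tested probe sets with that higher pair was not counted. The calmodulin gene Calm2, Marcks and Marcksl1 were named after their values were seen. Calm2 read 448.6, 386.9, 399.2 and 481.7, and Marcks 1918.4, 1761.5, 1185.7 and 1777.7. Marcksl1 went the other way at 6 h, its lowest hour, at 1875.1, 1714.6, 1745.3 and 1126.4.

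Among other CaM kinases and their inhibitors 4 probe sets were tested. Phkg1, a phosphorylase kinase catalytic subunit, read 200.9, 73.1, 164.2 and 182.4, low at 2 h alone. Dapk2, a death-associated kinase regulated by calmodulin, read 360, 416.6, 535 and 265.3, highest at 4 h and lowest at 6 h. The median slope of the 4 tested probe sets was 0.019 log2 per h.

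Calcineurin regulators, anchors and immunophilins had 9 tested probe sets with a median slope of -0.007 log2 per h. As deposited, 6 of them were highest at 4 h, as were 32.9% of all tested probe sets. These 6 include both tested probe sets of Akap1. The 4 h array had the highest median, 212.8, and the count was not repeated under other scalings. The calcineurin inhibitor gene Rcan3 read 484.9, 482.7, 193.8 and 503.8, low at 4 h alone. The mitochondrial anchor gene Akap1 spanned 3.46-fold on probe set 97368_at, at 495.2, 382.4, 687.1 and 198.4, but its second tested probe set read 182, 144.6, 184.5 and 151.8. Rcan1, the inhibitor gene that NFAT is known to induce, was named after its values were seen, at 680.7, 929.3, 1200.5 and 1113.9. Its slope was 0.14 ± 0.07 log2 per h (SE, n = 4; limma adjusted p = 0.99995). Its lowest reading was at 1 h, as in 24.1% of all tested probe sets. Ppp3ca and Ppp3cb read highest at that hour, and a link to Rcan1 was not tested.

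In the NFAT and CREB branch, 10 probe sets were tested, 7 with negative slopes. The CREB family gene Crem read 110.7, 179.2, 76 and 186.1 on its tested probe set. Mef2c, a calcineurin-responsive transcription factor gene, had 4 tested probe sets, and the one of them with the widest span read 147.4, 137, 243.4 and 101.9, while another read 424.8, 682.6, 590.6 and 399.7. Among postsynaptic partners and substrates of CaM kinase II, 5 of 11 tested probe sets were highest at 1 h, as were 23% of all tested probe sets. The AMPA receptor subunit gene Gria1 read 6707.6, 3195.1, 3779.7 and 6382.7 on 1 probe set and 776.1, 600.7, 672.2 and 574.2 on the other. Dlg4, the gene of the scaffold PSD-95, was high at 2 h, at 680.3, 1150.1, 611.4 and 561.3.

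In the protein phosphatase 1 branch, which calcineurin releases by dephosphorylating inhibitor 1, 4 probe sets were tested with a median slope of -0.036 log2 per h. The inhibitor 1 gene Ppp1r1a read 535.6, 339.2, 380.2 and 335.2, high at 1 h like Ppp3ca and Ppp3cb. The inhibitor 2 gene Ppp1r2 read 158.3, 100.5, 238.4 and 259.9, lowest at 2 h. In each of the 6 lists slopes lay on both sides of 0, as did those of all tested probe sets.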

How the data were processed

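The authors deposited linear array intensities, 1 value for each of 12488 probe sets in each sample. The scanner software is not given in the sources used here, nor is a genome build. Array means trimmed by 2% at both ends lay between 499.7 and 499.9 on the 4 arrays. A common scaling by the authors was inferred from that, and the intensities were used as deposited. Left out were 66 array controls, 1193 probe sets with no symbol and 396 with several. Names came from the platform annotation, of which 10817 of 10833 single-symbol probe sets matched RefSeq by identifier.

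Intensities were floored at 38.3 and put on a log2 scale. A straight line on the hour was estimated using limma 3.58.1 (R 4.3.3; lmFit and trended eBayes, with 2 residual degrees of freedom and prior degrees of freedom of 9.8 at the median), with Benjamini-Hochberg adjustment over 6500 probe sets and calls at 0.05. These p values measure scatter about a line in which hour and array cannot be told apart, with 1 array per hour. The variance of each probe set was drawn towards that of probe sets of similar intensity. The SEs and intervals therefore rest only in part on the probe set's own scatter. The fit was tested on simulated data. Alternatives were other scalings, floors, filters, feature and time scales, a variance model without an intensity trend, and each array left out.

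Members and lists were chosen with earlier results of these data known. Named are every member probe set, the 2 genes of each pathway list with the widest span, the 2 brightest genes of each marker list, of which those of granule cells and choroid plexus are printed, and the 5 probe sets closest in course to the member with the largest SD. Exceptions are marked as named after their values were seen.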

Additional observations from a re-analysis of the deposited data

Results flagged for a closer look

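Both Camk2a probe sets held 1 array far from the other 3. For 93660_at the 1 h value of 127.2 stood apart from 45.4 to 51.2 at the other hours, a gap of 0.929 of the whole range. For 93659_at the 4 h value of 85.7 stood apart from 9 to 18, a gap of 0.883 of the range, with the other 3 values under the floor. Chance alone passes the limit of Dixon's test for 4 samples in about 1 of 20 groups, and 8.49% of all 10833 single-symbol probe sets passed it. The 2 probe sets name different arrays for the same gene. The values of Ppp3ca (0.813), Camk4 (0.801), Ppp3cb (0.791) and Ppp3r1 (0.768) lay under the limit.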

How the results depend on the processing

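Of 60 slopes of the 5 tested members under 12 alternatives, 56 kept their sign, 0 were called and 4 changed sign, each without 1 array. These were Ppp3ca (0.039) and Ppp3cb (0.07) without the 1 h array, and Camk2b (-0.069) and Ppp3r1 (0.005) without the 6 h array. Settings that changed only the filter, the floor, the probe sets kept per gene or the variance model left these slopes as they were by construction. The smallest adjusted p over the alternatives was 0.524 for Ppp3ca, 0.565 for Ppp3cb, 0.808 for Ppp3r1, 0.818 for Camk2b and 0.958 for Ppp3cc. With 1 array left out, between 0 and 18 probe sets of all tested were called, from a line with 1 residual degree of freedom (18 without the 1 h array, 3 without the 2 h, 2 without the 6 h and 0 without the 4 h array), none of them a member. Slopes with an array left out ran from -0.069 to 0.066 for Camk2b, -0.231 to 0.039 for Ppp3ca, -0.264 to 0.07 for Ppp3cb, 0.041 to 0.077 for Ppp3cc and -0.18 to 0.005 for Ppp3r1. Members spanning over 2-fold numbered 0 with log2(value + 50), 0 after quantile normalization and 4 of 9 with no filter, against 1 as reported, and 0 to 1 with an array left out. All probe sets over 2-fold numbered 3699 with no filter, against 1406, and 787 to 1060 with an array left out, the fewest without the 4 h array. Array median scaling moved the median of all tested probe sets at 4 h to -0.15 log2 from the other hours, where it was 0.04 as deposited. It gave 0 members lowest at 1 h, 0 at 2 h and 4 at 4 h, and quantile normalization gave 0 at 1 h, 3 at 2 h and 1 at 4 h. With an array left out, members highest at an hour ranged over 2 to 3 at 1 h, 1 to 2 at 2 h, 0 to 1 at 4 h, 2 to 4 at 6 h, and members lowest over 1 to 2 at 1 h, 1 to 3 at 2 h, 2 to 3 at 4 h, 1 to 1 at 6 h. No paired analysis was possible because there is 1 group. The number of arrays limits what these data can show: no single hour has an error of its own.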
